A study of Mus musculus with 20 samples.

Results

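A set of 9 factors tied to the identity of cortical projection neurons was followed through every library of a mouse study of neuronal cell bodies and growth cones. They are Fezf2, Tbr1, Sox5, Ldb2, Etv1, Tox, Neurod6, Neurod2 and Foxo1, chosen by name with earlier results of these data known. All 9 were found among the 55487 genes of the deposited table. The libraries came from subcerebral projection neurons at postnatal day 1, the cortical neurons that send axons to brainstem and spinal cord. Somata were taken from cortex, and growth cones, the tips of growing axons, from brainstem and spinal cord. By label the genotype was wild-type (WT) or Bcl11b KO, a knockout of the transcription factor gene Bcl11b, and each of the 4 groups held 5 libraries. The labels give no strain, Cre driver or second allele, and do not say whether a library came from 1 animal or from a pool, so p-values measure the spread between libraries, which may be technical.

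Projection neurons of the neocortex acquire their subtype after the last division, through transcription factors that favour one axonal target and repress others. Fezf2, a zinc finger protein, is needed to specify subcerebral neurons and acts upstream of Bcl11b. Tbr1, a T-box protein, favours the corticothalamic fate of layer VI, and Sox5, an SRY-related HMG-box protein, controls the order in which corticofugal subtypes arise. Ldb2 is a cofactor that binds LIM-domain proteins and Etv1 is an ETS factor of layer V neurons. Neurod2 and Neurod6 are basic helix-loop-helix factors shared by all young glutamatergic cortical neurons. Tox is an HMG-box protein best known from T cell development, and Foxo1 is a forkhead factor held out of the nucleus by insulin signalling.

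The genes differ in architecture. Neurod6 (ENSMUSG00000037984.9) and Neurod2 (ENSMUSG00000038255.6) have 2 merged exon blocks each, within 3.4 and 4.2 kb of chromosomes 6 and 11. Sox5 (ENSMUSG00000041540.16, chromosome 6, 143828425 to 144781977, minus strand, GRCm38) has 25 blocks over 953.6 kb. Etv1 (ENSMUSG00000004151.17, chromosome 12, 38779380 to 38870484, plus strand) has 17 blocks, and its exons sum to 13296 bases against 2150 in Neurod6. Antisense genes overlap the exons of Sox5, Tox and Foxo1 by 9.25%, 3.42% and 7.78% of exon length. Their mean counts were 0, 1.25 and 0 per library, and whether counting used strand is not given in the sources used here. Of all 50-base windows in the annotated transcripts, 0% of those of Fezf2, Ldb2, Neurod6 and Neurod2 also occur in transcripts of other genes. The share was 0.146% for Tbr1, 2.83% for Tox, 6.8% for Foxo1, 8.98% for Sox5 and 9.08% for Etv1, so part of these counts could be shared.

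The 250 bases upstream of the RefSeq start site (GRCm38.p6) follow for Etv1 and Neurod6, which rose in somata labelled KO, and for Neurod2, the relative whose pattern lay closest to that of Neurod6. RefSeq windows were matched for 7 of the 9 genes. Capitals mark E-boxes (CANNTG, read the same on both strands), the element that basic helix-loop-helix proteins recognise. The Neurod2 window is shown without the 3 bases that the count table places in an exon.
Etv1, chr12:38779832-38780081, plus strand: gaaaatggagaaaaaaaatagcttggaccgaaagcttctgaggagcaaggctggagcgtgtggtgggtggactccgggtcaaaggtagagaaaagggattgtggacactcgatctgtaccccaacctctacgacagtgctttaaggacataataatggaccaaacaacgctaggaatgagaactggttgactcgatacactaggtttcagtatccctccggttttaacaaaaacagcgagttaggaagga
Neurod6, chr6:55681264-55681513, minus strand: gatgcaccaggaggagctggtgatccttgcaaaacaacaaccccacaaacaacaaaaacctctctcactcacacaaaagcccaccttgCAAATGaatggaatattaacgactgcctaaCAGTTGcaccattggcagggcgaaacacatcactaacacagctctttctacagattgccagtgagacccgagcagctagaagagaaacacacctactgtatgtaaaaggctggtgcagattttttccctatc
Neurod2, chr11:98329649-98329895, minus strand: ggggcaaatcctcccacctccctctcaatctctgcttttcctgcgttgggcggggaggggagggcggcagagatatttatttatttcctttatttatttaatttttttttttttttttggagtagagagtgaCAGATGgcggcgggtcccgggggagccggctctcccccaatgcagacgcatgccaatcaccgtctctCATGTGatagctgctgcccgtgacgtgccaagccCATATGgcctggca
The Etv1 window shown, the upstream one of 2, holds 0 E-boxes. It lies downstream of the gene start in the count table (38779380), with 0 of its bases in an exon there. The other Etv1 window, 241 of whose bases the count table places in an exon, holds 3 E-boxes, of which 1 is of the Neurod form, and 1 match to AACAAT. The window of Neurod6 holds 2 and that of Neurod2 holds 3, while 66.2% of 32851 mouse promoter windows of this length hold at least 1. In the Neurod2 window 1 of the E-boxes is CAGATG, the form preferred by Neurod proteins, which occurs on either strand in 14.4% of all windows. The letters AACAAT (SOX), CCGGAAG (ETS), GTAAACA (FOXO) and AGGTGTGA (T-box), sought on both strands, had 0 matches in the 3 windows shown and occur in 9.42%, 6.91%, 3.17% and 1.12% of all windows. Such matches describe the letters alone.

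Levels are given as CPM, counts scaled to library size, on a scale common to all 20 libraries, with totals of 18962308 to 51205154 counts in somata and 21657575 to 29323028 in growth cones. Bcl11b itself was not lower in libraries labelled KO. It stood at 701 ± 129.8 CPM (SD, n = 5) in WT somata and 1152 ± 56.8 CPM in somata labelled KO, and at 101 ± 19.3 and 102 ± 35.1 CPM in the growth cone groups. Counts over the whole gene thus show no loss of Bcl11b and lay higher in somata labelled KO. They cannot check the labels, since reads of single exons were not analysed here and the labels do not say which exons the allele lacks. Every genotype direction below is that of the labels. Markers of subcerebral neurons that are not among the 9 factors summed to 697 to 1088 CPM of the library total in somata. In growth cones they summed to 536 to 921 CPM, and 0 of 10 were at zero in any of the 4 groups. These sums hide opposite moves. Between growth cones and somata, 3 of the 10 had a log2 fold change above 0 and 7 below, in each genotype. Picked after their values were seen, Pcp4 had WT means of 40.6 CPM in somata and 317 in growth cones, and Cntn6 of 215 and 20.8. Several marker lists of other cells had higher sums in growth cone libraries. The 9 astrocyte markers summed to 1885 to 2620 CPM there against 32.6 to 358 CPM in somata. The 14 hindbrain and spinal cord markers summed to 72.4 to 270.1 CPM against at most 12.7 CPM, the 8 oligodendrocyte markers to 516 to 2245 against 57.7 to 101 CPM, and the 10 interneuron markers to 595 to 782 against 14.4 to 74.1 CPM. The 11 callosal neuron markers summed to 1226 to 1538 against 368 to 588 CPM, with 8 log2 fold changes above 0 and 3 below in each genotype. The 8 microglia markers overlapped, at 22.5 to 118 against 4.90 to 120 CPM. The part of any of these lists in the growth cone levels below was not tested.

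**Figure D1:**
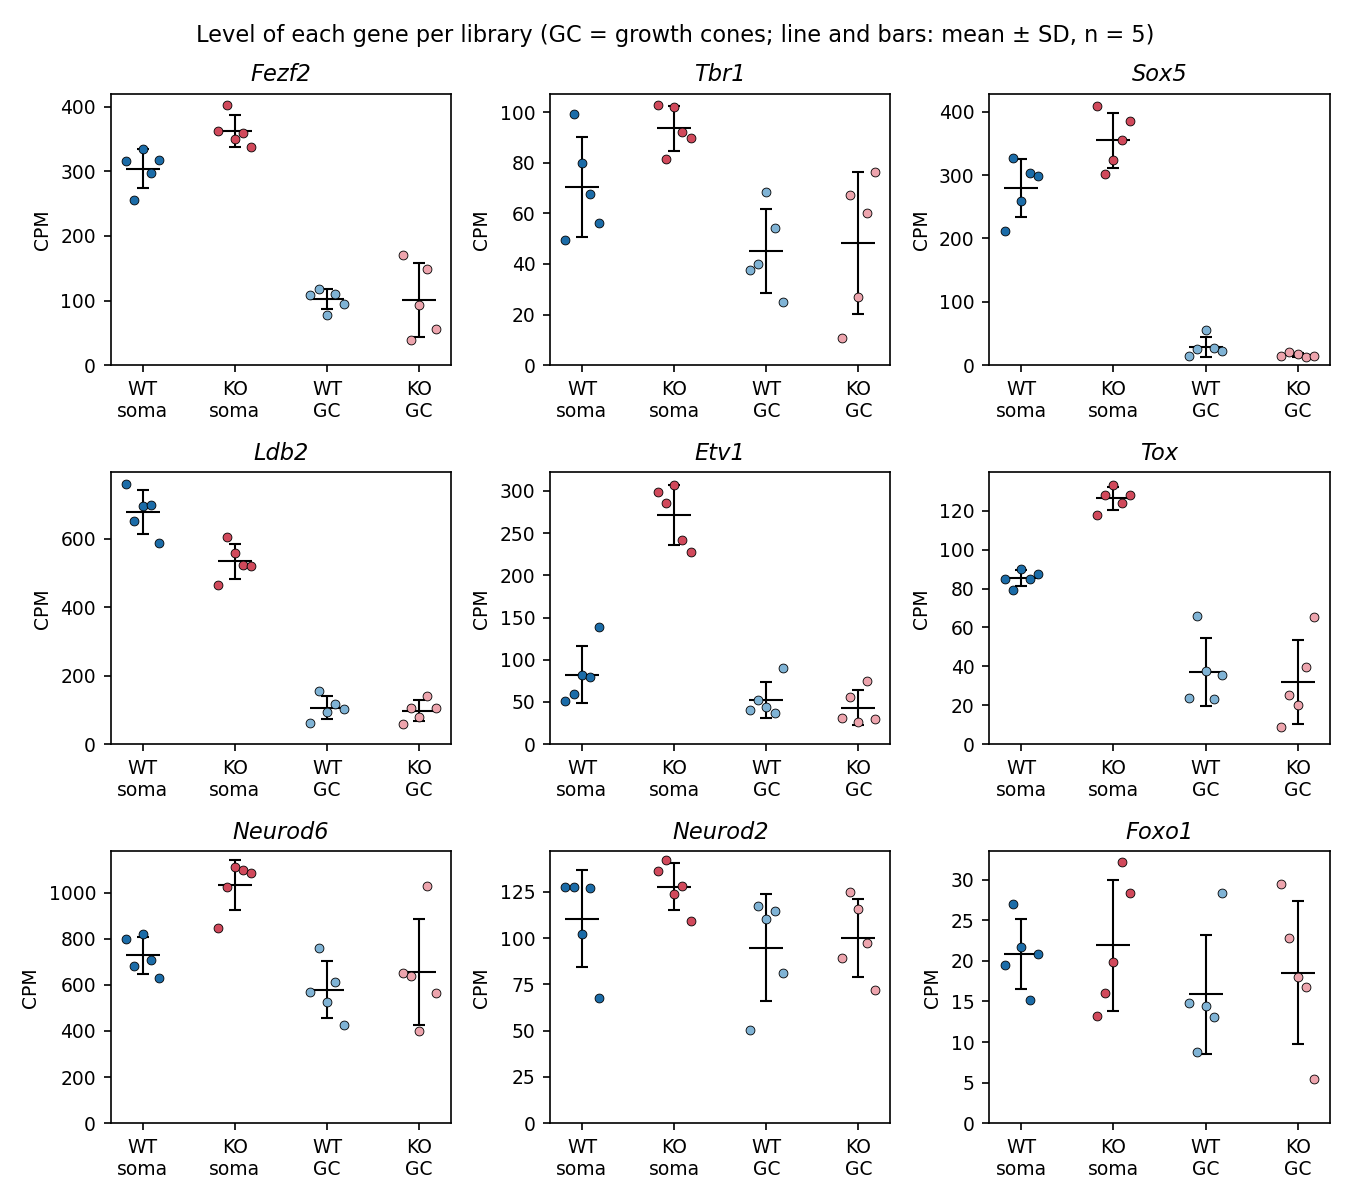
Level of each of the 9 genes in every library (y axis, CPM, starting at 0) for WT somata, KO somata, WT growth cones (GC) and KO growth cones; points are libraries, and the line and bars are mean ± SD (n = 5). Etv1 stands at 227 to 307 CPM in KO somata and at or below 138 CPM in every other library, while the 4 groups of Neurod2 and of Foxo1 overlap.

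Within somata the factors covered a wide range of abundance. Compared between genes per kilobase of exon, Neurod6 was the most abundant in WT somata at 339 ± 37.2 CPM per kb (SD, n = 5), followed by Ldb2 at 203 ± 19.2 and Fezf2 at 99.7 ± 9.86 CPM per kb. The ranges of these 3 did not overlap. Neurod2 (35.1 CPM per kb), Sox5 (19.5) and Tbr1 (12.8) came next, each overlapping its neighbour, and Tbr1 overlapped Tox (11.2). Etv1 (6.19 CPM per kb) and Foxo1 (2.41 CPM per kb) were the lowest, and neither overlapped the gene above it. In somata labelled KO the order was the same except for Etv1, which at 20.5 ± 2.67 CPM per kb lay between Sox5 and Tbr1 and overlapped both. In growth cones Neurod6 remained first, at 269 ± 57.1 CPM per kb in WT and 306 ± 107 in libraries labelled KO. Fezf2, Ldb2 and Neurod2 lay together there at 29.3 to 33.5 CPM per kb with overlapping ranges. Sox5 was among the 2 lowest genes of the growth cones, at 2.01 ± 1.07 CPM per kb in WT and 1.13 ± 0.233 in libraries labelled KO, with Foxo1 at 1.83 and 2.14 CPM per kb.

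The first comparison set somata labelled KO against WT somata. Etv1, Tox and Neurod6 rose, and the other 6 did not pass. The share called higher was thus 3 of 9, beside 0.416% of the 14911 genes tested (0.731% in either direction). The 9 genes were chosen with earlier results of these data known, so their counts here and below are no independent support. Calls here and below rest on the edgeR quasi-likelihood test, with p-values adjusted by Benjamini-Hochberg to a false discovery rate (FDR) of 0.05. For 8 of the 9 genes the log2 fold change was above 0, with a median of 0.34 against -0.0030 over all genes tested. In 4 of the 9 the groups did not overlap, beside 3.17% of all genes. In an alternative fit with experiment number as a replicate block, 0 of the 9 were called. Only numbers 14, 22, 25 and 26 occur in both soma groups. WT soma 12 and KO soma 15 therefore added nothing to the genotype difference in that fit.

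Etv1 changed most. Its level in WT somata 12, 14, 22, 25 and 26, as the experiments are numbered, was 51.5, 59.7, 81.8, 80.0 and 138 CPM. In somata 14, 15, 22, 25 and 26 labelled KO it was 299, 286, 307, 241 and 227 CPM. Every KO library lay above every WT library, and WT soma 26, the shallowest library, was the highest of its group. The log2 fold change was 1.73 ± 0.23 (SE), a 3.31-fold rise, with an edgeR adjusted p of 0.00475. With experiment number as a replicate block it was 1.64 and did not pass (edgeR adjusted p = 0.0845).

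Tox was the least variable of the 9 genes in somata. WT somata 12 to 26 held 84.7, 79.3, 90.3, 84.7 and 87.3 CPM and somata 14 to 26 labelled KO held 118, 128, 133, 124 and 128 CPM. The SD was 4.05 and 5.70 CPM, the groups did not overlap, and Tox rose by 0.56 ± 0.086 on the log2 scale (edgeR adjusted p = 0.00861). With the replicate block Tox did not pass (0.56, edgeR adjusted p = 0.108). In the fit of all 20 libraries the size was the same (0.57) but the adjusted p was 1.00.

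Neurod6, the most abundant of the factors, passed narrowly. Its levels were 801, 684, 819.9, 710.0 and 630.3 CPM in WT somata and 846, 1025, 1111, 1098 and 1084 CPM in somata labelled KO. The lowest KO library, soma 14, lay close to the highest WT library, soma 22, without overlap. The log2 fold change was 0.50 ± 0.10 with an edgeR adjusted p of 0.0491. With 1 library left out in turn, in 8 of 10 fits it no longer passed, and the highest adjusted p, 0.149, came without KO soma 22. It still passed without WT soma 12 or KO soma 14. Of all 19 alternatives 13 did not call it. The edgeR adjusted p was 0.661 in the fit of all 20 libraries and 0.106 with the replicate block. Neurod2 did not pass. It was at 110.4 ± 26.3 CPM in WT somata and 128 ± 12.7 CPM in somata labelled KO, with a log2 fold change of 0.21 (95% interval -0.16 to 0.57, edgeR adjusted p = 0.908), or 0.07 without WT soma 26 and 0.024 with detected genes as a covariate. That interval includes the value found for Neurod6, and the difference between the 2 genes was not tested.

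Fezf2, Ldb2, Sox5, Tbr1, Neurod2 and Foxo1 did not pass in somata. Ldb2 was the only one of the 9 with a negative value. It was at 758, 649.8, 695, 698 and 586 CPM in WT somata and at 465, 604, 558, 524 and 521 CPM in somata labelled KO, where soma 15 alone exceeded the lowest WT library. Its log2 fold change was -0.35 ± 0.094 with an edgeR adjusted p of 0.173. The DESeq2 Wald test called it lower (adjusted p = 0.0149). Fezf2, at 315, 255, 334, 298 and 317 CPM in WT and 362, 402, 349, 359 and 337 CPM in somata labelled KO, had groups that did not overlap, yet a log2 fold change of 0.25 ± 0.090 that did not pass (edgeR adjusted p = 0.395). Sox5 (280.0 ± 45.6 against 355 ± 43.4 CPM, log2 fold change 0.34) and Tbr1 (70.4 ± 19.8 against 93.6 ± 8.99 CPM, 0.41) had edgeR adjusted p-values of 0.413 and 0.538. Foxo1 was at 20.9 ± 4.28 and 21.9 ± 8.06 CPM, with a 95% interval of -0.52 to 0.65 around a log2 fold change of 0.07. Before adjustment, 7 of the 9 genes had a p under 0.05, as did 8.57% of all genes.

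Of the 10 marker lists, 1 had sums that did not overlap between the soma groups. The 10 corticothalamic and subplate markers summed to 94.0 to 194 CPM in WT somata, all below the 291 to 501 CPM of KO somata. All 10 had a log2 fold change above 0, yet 2 were called higher and 8 did not pass (edgeR), beside 0.416% of all genes called higher. By mean CPM of the library total, Tle4 gained the most (46.9 to 165 CPM) and Nxph4 the least (0.770 to 1.11 CPM). The 10 subcerebral markers summed to 755 to 1088 and 697 to 806 CPM, which overlap, yet 1 of them was called higher, 2 were called lower and 7 did not pass (edgeR). Crym, at 96.3 to 238 CPM in WT and 18.6 to 56.2 CPM in KO somata, and Pcp4, at 26.6 to 58.9 and 9.53 to 13.9 CPM, lay below WT in every KO library. Diaph3, at 10.5 to 25.4 and 34.4 to 68.3 CPM, lay above it. These 3 were picked out after their values were seen. Interneuron markers summed to 23.4 to 74.1 and 14.4 to 61.7 CPM and astrocyte markers to 32.6 to 273 and 132 to 358 CPM, both with overlap. Their part in the changes of Etv1, Tox and Neurod6 was not tested. In these bulk libraries, fewer cells of a type and less RNA per cell cannot be told apart.

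Of a list of 39 other regulators of projection neuron identity, which shares Tle4 and 3 more genes with the corticothalamic markers, 38 were tested in somata. Of these, 3 were higher, 1 was lower and 34 did not pass, beside 0.416% higher and 0.315% lower over all genes tested. The list was chosen with earlier results of these data known, so its counts are no independent support. Tle4, a Groucho-type corepressor of corticothalamic neurons, rose from 50.2 ± 16.7 to 175 ± 42.2 CPM (log2 fold change 1.80, edgeR adjusted p = 0.00693). Bcl11a, the paralog of Bcl11b, rose from 142 ± 7.96 to 216 ± 21.2 CPM (0.60, adjusted p = 0.00807). Foxp1, a forkhead repressor, fell from 239 ± 30.8 to 127 ± 24.7 CPM (-0.92, adjusted p = 0.00917). Etv5, an ETS factor of the same subfamily as Etv1, rose from 59.5 ± 12.1 to 113 ± 23.1 CPM (0.92, adjusted p = 0.0347). It was also the single call among the 10 tested genes that belong to the families of the 9 factors.

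**Figure D2:**
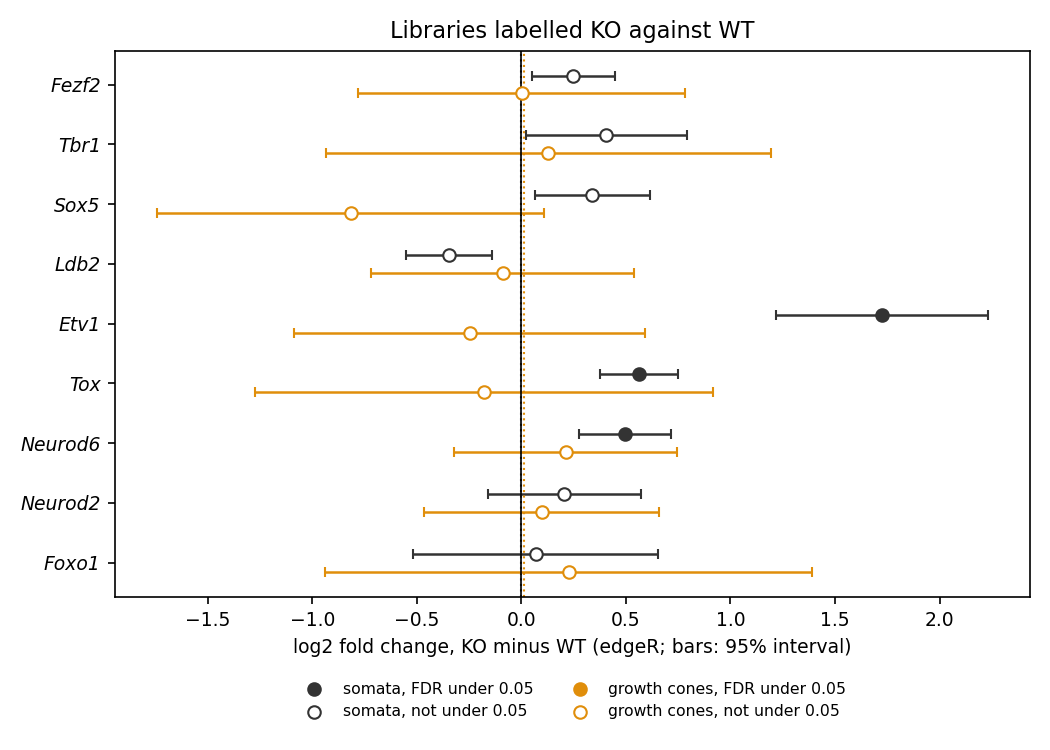
Log2 fold change of the 9 genes between libraries labelled KO and WT (x axis, edgeR estimate with its 95% interval), in somata and in growth cones; filled points have an FDR under 0.05, open points do not, and dotted lines mark the medians of all genes tested. Etv1 (1.73), Tox (0.56) and Neurod6 (0.50) are filled in somata, and all 9 growth cone intervals include 0.

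The same question was put to growth cones, where no factor passed. Of 15419 genes tested 0% were called, and of the 9 factors 0 had an unadjusted p under 0.05 by edgeR, beside 2.13% of all genes. DESeq2 and limma-voom called 0 of the 9 as well. In 9 of 9 genes the groups overlapped, beside 0.532% of all genes without overlap. Log2 fold changes were above 0 in 5 genes and below 0 in 4, with a median of 0.0016 against 0.01 over all genes tested.

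The growth cone libraries spread more than the somata, which limits what could be detected. Fezf2 in growth cones 7 to 11 was at 109, 118, 78.0, 110.2 and 94.996 CPM in WT and at 171, 39.1, 93.6, 148 and 55.3 CPM in libraries labelled KO. The means of 102 and 101 CPM hid an SD of 15.8 in WT and 57.2 in libraries labelled KO, and the 95% interval of the log2 fold change ran from -0.78 to 0.78. The largest difference was that of Sox5. It was at 14.5, 26.1, 55.0, 26.8 and 22.3 CPM in WT growth cones and at 14.5, 21.3, 17.6, 12.7 and 15.1 CPM in those labelled KO, so that WT growth cone 9 was far above the rest. Its log2 fold change was -0.82 ± 0.43 (edgeR adjusted p = 0.999), and -0.45 without WT growth cone 9.

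The genes that rose in somata labelled KO did not pass here. Etv1 was at 40.4, 51.8, 44.1, 37.5 and 90.0 CPM in WT growth cones and at 30.8, 55.8, 25.9, 74.3 and 29.7 CPM in those labelled KO. The groups overlapped, but KO growth cones 7, 9 and 11 lay below every WT library and WT growth cone 11 above every KO library. The 95% interval of the log2 fold change was -1.09 to 0.59, below the soma value of 1.73. Tox ranged from 23.1 to 66.1 CPM in WT and from 8.97 to 65.5 CPM in growth cones labelled KO, with an interval of -1.27 to 0.91, which includes its soma value of 0.56. Neurod6, at 568, 762, 526, 613 and 428 CPM against 650.5, 641, 402, 1028 and 565 CPM, had an interval of -0.32 to 0.74, which includes its soma value. For Ldb2, Neurod2, Tbr1 and Foxo1 the log2 fold changes were -0.09, 0.10, 0.13 and 0.23. Among the other regulators 39 were tested and none passed, nor did any of 13 family relatives (edgeR).

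A model of all 20 libraries with an interaction term compared the genotype difference in growth cones with that in somata. By edgeR 0 of the 9 factors passed, beside 0.0397% of 17645 genes (0.0113% higher and 0.0283% lower), and 2 had an unadjusted p under 0.05, beside 6.98% of all genes. These were Etv1, with an interaction of -2.01 ± 0.44 on the log2 scale (95% interval -2.94 to -1.08, adjusted p = 0.150), and Sox5, with -1.18 ± 0.35 (-1.91 to -0.44, adjusted p = 0.401). The Etv1 interaction passed under the DESeq2 Wald test (adjusted p = 0.00120) and, by edgeR, once KO growth cone 10 was left out (-2.31). After adjustment over all genes, the rise of Etv1 in somata is therefore not shown by the main test to differ from its behaviour in growth cones. For Tox the interaction was -0.79 (95% interval -1.86 to 0.29), and limma-voom called 0 of the 9.

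The next comparisons set growth cones against somata. In WT, Sox5, Ldb2, Fezf2 and Tox were lower in growth cones and 5 factors did not pass. That is 4 of 9 lower, beside 19.7% of 15128 genes, and 0 of 9 higher, beside 23.1%. In libraries labelled KO 6 of 9 were lower, beside 17.0% of 15410 genes, and 0 of 9 higher, beside 21.6%. The added calls were Etv1 and Neurod6. An unadjusted p under 0.05 was reached by 4 of 9 in WT, beside 50.8% of all genes, and by 6 of 9 in libraries labelled KO, beside 46.8%. The compartments did not overlap for 4 of 9 in WT, beside 37.9%, and for 6 of 9 in libraries labelled KO, beside 36.8%. All 9 log2 fold changes were below 0 in both genotypes, with medians of -0.60 and -1.76 against 0.07 and 0.11 over all genes, except that with upper-quartile scaling Neurod2 in WT (0.02) and Foxo1 in libraries labelled KO (0.05) turned positive. That scaling moved the median of all genes to 0.28 and 0.31. Growth cones and somata came from separate tissues and carry separate experiment numbers, so neither can be told apart from the compartment. Each group enters 1 genotype and 1 compartment comparison, so that these share libraries.

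**Figure D3:**
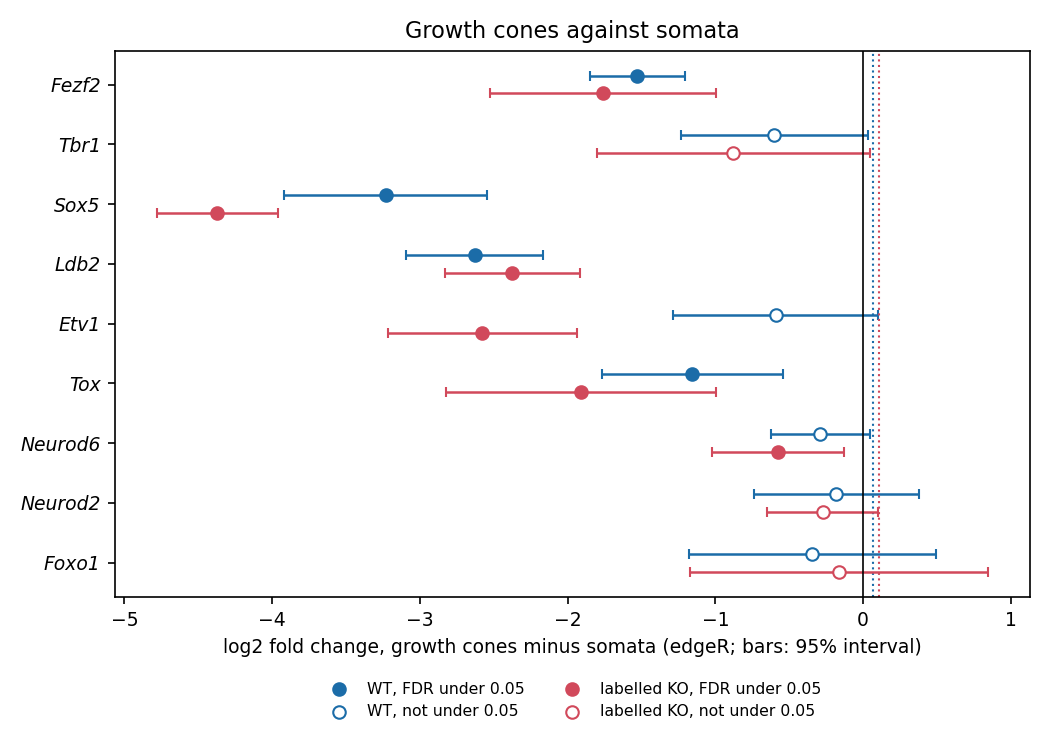
Log2 fold change of the 9 genes between growth cones and somata (x axis, edgeR estimate with its 95% interval), in WT and in libraries labelled KO; filled points have an FDR under 0.05, open points do not, and dotted lines mark the medians of all genes tested. Sox5 lies farthest to the left (-3.23 and -4.37), and Neurod2 and Foxo1 have intervals that include 0 in both.

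Sox5 had the steepest gradient. From the soma levels of 211, 327, 259, 304 and 298 CPM in WT and 409, 302, 324, 355 and 385 CPM in libraries labelled KO, the growth cone mean was 10.3% of the soma mean in WT and 4.57% in libraries labelled KO. The log2 fold changes were -3.23 ± 0.32 (edgeR adjusted p = 9.26e-06) and -4.37 ± 0.19 (1.2e-07). Of all genes tested, 1.79% and 0.896% had a lower value. The difference between the genotypes is the Sox5 interaction given above, which did not pass.

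Ldb2 came next. In growth cones 7 to 11 it was at 62.4, 156, 94.5, 117 and 103 CPM in WT and at 58.8, 104, 79.9, 142 and 104 CPM in libraries labelled KO, that is 15.7% and 18.3% of the soma means. Experiment 7 was the lowest library in both groups. Ldb2 fell by 2.63 on the log2 scale in WT (SE 0.21, edgeR adjusted p = 2.41e-06) and by 2.37 in libraries labelled KO (SE 0.21, 6.9e-06). Bcl11b, for comparison, had growth cone means of 14.4% and 8.87% of its soma means.

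Fezf2 and Tox had growth cone levels closer to their soma levels. The growth cone mean of Fezf2 was 33.6% of the soma mean in WT and 28.0% in libraries labelled KO. Its log2 fold changes were -1.53 ± 0.15 (edgeR adjusted p = 8.67e-06) and -1.76 ± 0.35 (0.00192). Tox stood at 43.6% and 25.3%, with log2 fold changes of -1.16 ± 0.28 (edgeR adjusted p = 0.00585) and -1.91 ± 0.42 (0.00350). Each of these 4 comparisons had no overlap between the compartments.

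Etv1 had the largest interaction of the 9 in size, though it did not pass. In WT the growth cone mean was 64.1% of the soma mean and the libraries overlapped (log2 fold change -0.59 ± 0.32, edgeR adjusted p = 0.155). Without WT growth cone 11, at 90.0 CPM, the value was -0.88 and passed (adjusted p = 0.0298), while without WT soma 26 it was -0.35 (adjusted p = 0.384). In libraries labelled KO the growth cone mean was 15.9% of the soma mean (-2.58 ± 0.29, adjusted p = 4.35e-05), with no overlap. Growth cone levels of 52.7 ± 21.5 and 43.3 ± 21.001 CPM were close, and the soma levels of 82.3 ± 33.9 and 272 ± 35.5 CPM were not. The KO value rests on the same KO somata as the genotype comparison and is no separate evidence.

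The helix-loop-helix factors stood at a large part of their soma level in growth cones. Such percentages compare scaled shares of separate RNA pools and do not measure transcript held in or carried to the axon tip. Neurod6 stood at 79.5% of its soma level in WT and 63.6% in libraries labelled KO. It did not pass in WT (log2 fold change -0.29, 95% interval -0.62 to 0.04, edgeR adjusted p = 0.149), but did so without WT growth cone 8 (-0.39, adjusted p = 0.0397). The value was -0.17 without WT soma 12 (adjusted p = 0.459) and -0.078 with upper-quartile scaling (0.721). In libraries labelled KO it was called lower (-0.58 ± 0.20, adjusted p = 0.0424), which 8 of 10 fits with 1 library left out did not call (highest adjusted p 0.109, without KO growth cone 11), the exceptions being those without KO soma 14 or KO growth cone 10. Nor was it called with DESeq2 size factors, with library totals, with upper-quartile scaling and with detected genes as a covariate. Neurod2 stood at 85.8% and 78.2% of its soma level and passed in neither (log2 fold changes -0.18 and -0.28, edgeR adjusted p = 0.604 and 0.233). It ranged from 50.2 to 117 CPM in WT growth cones and from 71.9 to 125 CPM in those labelled KO, within or near the 67.6 to 142 CPM of somata.

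Tbr1 and Foxo1 did not pass either. Tbr1 was at 37.5, 39.9, 68.5, 54.3 and 25.1 CPM in WT growth cones and at 10.8, 67.3, 26.8, 60.3 and 76.4 CPM in those labelled KO, against 49.4 to 99.2 and 81.5 to 103 CPM in somata. The KO compartments did not overlap, yet the log2 fold change of -0.88 ± 0.42 had an edgeR adjusted p of 0.123. The limma-voom test called it (-1.16, adjusted p = 0.0264). In WT the value was -0.60 (adjusted p = 0.116), and -0.80 without WT growth cone 9, which passed (0.0458). Foxo1, the lowest factor of the somata, ranged from 5.50 to 29.5 CPM in growth cones and from 13.2 to 32.1 CPM in somata, with adjusted p-values of 0.503 and 0.814.

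The other regulators went both ways between the compartments. Of 39 tested, 12 were higher and 14 lower in WT growth cones, and 11 were higher and 18 lower in libraries labelled KO. Over all genes tested, 23.1% were higher and 19.7% lower in WT, and 21.6% higher and 17.0% lower in libraries labelled KO. Lmo4, a LIM-only protein, was at 40.8 ± 4.95 CPM in WT somata and 414 ± 74.3 CPM in WT growth cones (log2 fold change 3.39, edgeR adjusted p = 7.55e-08). Its relative Lmo3 went the other way, from 695 ± 81.3 to 165 ± 23.3 CPM (-2.03, adjusted p = 7.88e-07). Nr2f1, a nuclear receptor that patterns cortical areas, was higher in WT growth cones (4.14, 6.92e-07), and Nfix, a nuclear factor I protein, was lower (-2.12, 6.02e-07). In libraries labelled KO, Mef2c (-3.40), Zbtb18 (-2.51) and Lmo3 (-2.48) were lower and Lmo4 (3.07) higher, with edgeR adjusted p-values from 1.2e-07 to 8.38e-07.

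Family relatives of the 9 factors also went both ways. This list shares Etv5 and Ldb1 with the other regulators. Of 12 tested in each genotype, 5 were higher and 2 lower in WT, and 4 were higher and 2 lower in libraries labelled KO. The shares over all genes are those given for the other regulators. Sox6, a paralog of Sox5, was at 0.608 ± 0.547 CPM in WT somata and 23.8 ± 16.2 CPM in WT growth cones (log2 fold change 5.33, edgeR adjusted p = 0.00162), opposite in direction to Sox5. Etv4, an ETS relative of Etv1, was at 1.59 and 15.1 CPM (3.29, 0.0172). Fezf1 was at the floor of 3 counts or fewer in WT somata and at 4.64 ± 2.28 CPM in the growth cones, which is at least 42.8-fold higher (floor per library). Tox4 was lower in growth cones (-1.77 in WT and -1.67 in libraries labelled KO). The hindbrain, spinal cord and oligodendrocyte markers given above were higher in the same growth cone libraries, and their part in these relatives' levels was not tested.

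**Figure D4:**
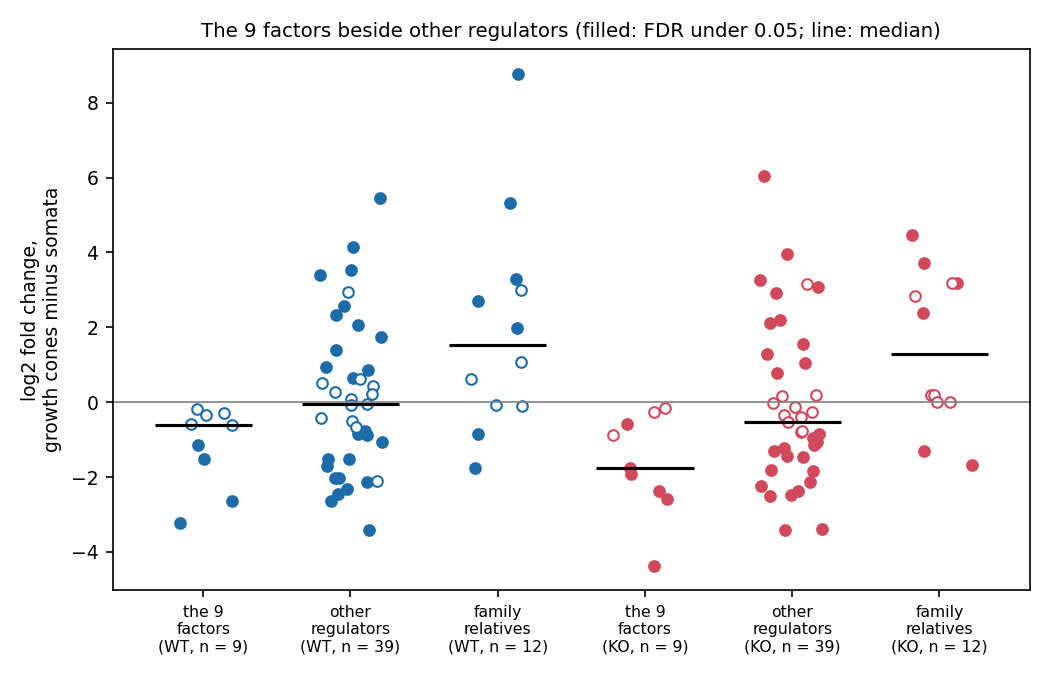
Log2 fold change between growth cones and somata (y axis, edgeR estimate) for the 9 factors, the other regulators and the family relatives, in WT (blue) and in libraries labelled KO (red); each point is a gene, filled where the FDR is under 0.05, and lines are medians. The highest WT point is the fitted value of Fezf1, whose WT somata are at the floor of 3 counts. All 9 factors lie below 0 in both genotypes, whereas the other 2 lists spread on both sides.

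The level patterns of the factors over the 20 libraries were compared as the root mean square (RMS) difference of log2 CPM after centring each gene. Among the 9, Neurod6 and Neurod2 were the closest pair (RMS difference 0.43) and Sox5 and Foxo1 the most distant (1.91). Over the genes whose mean reached 5 CPM, the nearest to Sox5 were Mef2c (0.54) and Fam49a (0.59), beside a median of 2.03 over all such genes. The nearest to Etv1 were Snx7 (0.55) and Grin3a (0.58), which stood at 82.4 and 122 CPM in WT somata and at 151 and 277 CPM in somata labelled KO. Fezf2 lay nearest to Pitpnb (0.32) and Rtcb (0.32), and Tox to Aldh18a1 (0.37) and Exoc1 (0.41). Neurod6 lay nearest to Rab11b (0.28) and Nrep (0.28), and Neurod2 to Marcksl1 (0.28) and Dazap1 (0.29). Tbr1 lay nearest to Ip6k1 (0.41) and Sgk1 (0.42), and Foxo1 to Ubxn2b (0.40) and Tor1aip2 (0.41). These distances describe the pattern and share each library's depth and scaling.

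The spread between libraries differed by compartment. Their coefficients of variation had a median of 16.3% (WT) and 9.93% (labelled KO) in somata, beside 19.7% and 16.04% over all genes of at least 20 CPM. In growth cones the medians over the factors of at least 20 CPM were 34.6% (8 genes) and 48.5% (7 genes), beside 32.7% and 35.6%. Tox had 4.75% and 4.51% in the soma groups and 47.1% and 68.2% in the growth cone groups.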

How the data were processed

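The authors deposited unscaled read counts per gene for all 20 libraries together. Per the submitters' processing notes, Trimmomatic 0.39, STAR 2.7.1a and featureCounts 1.5.0 were used with build GRCm39. The table's coordinates are those of GRCm38, since 98.1% of its genes match GENCODE M21, the source of the symbols, exon for exon. All coordinates are those of the table or of RefSeq on GRCm38. The exon length in bases, also deposited, gave CPM per kb. SMART-seq v4 and Nextera XT libraries were made, per the labels' protocols, with no molecular identifiers named there, so a floor of 3 counts covers counting error only. The table had 0 rows that name no gene and 0 unmatched columns.

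Libraries were grouped by title. Within groups the smallest chi-square per degree of freedom was 52.7, so no library was merged. Tests used edgeR 4.0.16 (R 4.3.3): filterByExpr (minimum count 10), TMM scaling, quasi-likelihood F test and Benjamini-Hochberg adjustment over all genes at 0.05. Only the 2 groups compared entered a fit, and all 20 libraries the interaction. SE were derived from F statistics. The procedure was also run on simulated counts of independent libraries, whose outcome is not reported here and is no support for the results. Levels used TMM over all 20 libraries, and marker sums the library total. The text names the 9 genes, Bcl11b, up to 4 called genes per list and comparison with the lowest p, and the 2 nearest patterns per factor, of which those of Ldb2 are not reported here. Alternatives were other scalings, no filter, DESeq2 1.42.0, limma-voom 3.58.1, detected genes as a covariate, all libraries in one fit, a replicate block and leaving out each library. The genes and lists were chosen with earlier results of these data known. Ldb2 and Tox promoters were not used here.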

Additional observations from a re-analysis of the deposited data

Results flagged for a closer look

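Of the 36 sets of 5 libraries (9 genes in 4 groups), 1 held a library that stood apart. Etv1 in WT growth cone 11 was at 90.0 CPM while the other WT growth cones were at 37.5 to 51.8 CPM, and the gap to the nearest library was 0.728 of the group's range, above Dixon's 95% critical value for 5 samples. Chance gives about 1 such set in 20.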

How the results depend on the processing

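Of the 9 genes, the number called between KO and WT somata was 3, and it was 1 with all 20 libraries in one fit and 0 with the replicate block. In the interaction 0 were called, and 1 (Etv1) by the DESeq2 Wald test; leaving out 1 library gave 0 to 1. Other counts of the 9 genes stayed within 1.5 times the reported ones. In growth cones, KO against WT, Fezf2 (0.0016) turned to -0.0069 with DESeq2 size factors, -0.026 with library totals, -0.0039 with upper-quartile scaling, -0.0046 without the filter, -0.0069 by the DESeq2 Wald test, -0.17 by limma-voom, -0.0096 with all 20 libraries and -0.18 with the block. Tbr1 turned to -0.11 by limma-voom and -0.10 with the block. With upper-quartile scaling Neurod2 between WT compartments was 0.02 (0.024) and Foxo1 between KO compartments 0.05 (0.046). With 1 library left out, growth cone values of KO against WT ran from -0.23 to 0.20 for Fezf2, -0.085 to 0.39 for Tbr1, -0.29 to 0.062 for Ldb2, -0.56 to 0.038 for Etv1, -0.60 to 0.10 for Tox, -0.040 to 0.35 for Neurod6 and -0.062 to 0.20 for Neurod2. They ran from -0.11 to 0.20 for Foxo1 in somata, -0.34 to 0.0078 for Neurod2 between WT compartments, -0.45 to 0.035 for Foxo1 between KO compartments, and -0.29 to 0.028 for Neurod2 and -0.079 to 0.46 for Foxo1 in the interaction. Without a change of sign they ran from 0.021 to 0.54 for Foxo1 in growth cones, -0.67 to -0.17 for Foxo1 between WT compartments and -1.19 to -0.49 for Tox in the interaction. None of these genes passed in those comparisons, and the causes were not tested. Over all genes, calls between somata were 402 by DESeq2, 30 with all 20 libraries and 34 with the block, against 109; between growth cones 11 by DESeq2 and 7 with all 20 libraries, against 0; in the interaction 273 by DESeq2, 0 with the block and 4 with detected genes as a covariate, against 7. The block tested experiment numbers as a pairing. Deviations of same-numbered libraries correlated at 0.02 to 0.10 in growth cones and -0.01 to 0.11 in somata. Correlations this weak cannot show whether a number marks a pairing, and no label says what a shared number stands for. As a hint from the data alone, 5 of 5 KO growth cones and 3 of 5 WT growth cones correlated best with the library of their own number, as did KO somata 14 and 25 and WT somata 14, 22 and 25. Under the block the adjusted p in somata was 0.0845 for Etv1, 0.108 for Tox and 0.106 for Neurod6. The shallowest growth cone library held 21657575 counts, and how depth limits the calls was not tested.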
